A study of Homo sapiens with 6 samples.

Results

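The unfolded protein response (UPR) senses misfolded protein in the endoplasmic reticulum (ER) through 3 membrane proteins, IRE1 (gene ERN1), PERK (EIF2AK3) and ATF6, and passes the signal on through the transcription factor XBP1, the translation factor eIF2alpha and the cleaved ATF6 fragment. The 10 genes described here are those sensors with the ATF6 relative ATF6B, XBP1, the Golgi proteases that cut ATF6 (MBTPS1, site-1 protease, and MBTPS2, site-2 protease), and the 4 kinases of eIF2alpha, of which PERK is the ER member (EIF2AK1, EIF2AK2, EIF2AK3 and EIF2AK4). They were taken by symbol, each matched by its Ensembl ID to 1 row, so they are 10 of the 60892 rows of the count table. The series asks whether ZQ acts on ER stress in infected airway cells, and these genes are the apparatus that detects it.

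The cells were BEAS-2B, a transformed line of human bronchial epithelium labelled wild type, and their RNA was sequenced. The ZQ group was kept in 10 mg/mL ZQ (Zhenqi Granules, a herbal preparation) for 24 hours and then met methicillin-resistant Staphylococcus aureus (MRSA) for 2 hours at 1 bacterium per cell. The control group received plain medium for the same 24 hours and then the same bacteria. Each group had 3 libraries, none was without bacteria, and the labels do not state whether each was its own culture. The p-values therefore gauge only library-to-library spread, which may be technical.

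Transcription of these genes is only the outer layer of their control. IRE1, PERK and ATF6 are held by the chaperone BiP and are switched on by release from it, by clustering, or, for ATF6, by travel to the Golgi and cleavage. IRE1 then removes an intron from XBP1 mRNA in the cytosol, and the kinases phosphorylate eIF2alpha, which lowers general translation and favours the factor ATF4. Counts per gene hold none of these steps: they neither separate spliced from unspliced XBP1 mRNA nor show phosphorylation or cleavage.

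ZQ libraries held 2064566 to 2451746 counts and control libraries 11665967 to 14699677, a mean depth 5.95 times lower with ZQ. Mitochondrially encoded genes took 39.6% ± 1.13 of counts with ZQ and 8.74% ± 1.57 in control libraries (SD, n = 3 each). Of 8 epithelial markers, 5 to 7 had a count in a ZQ library and 5 or 6 in a control library, with summed levels of 1494 to 1651 CPM (counts per 1e+06 counts, here by library totals) in ZQ and 2050 to 3885 in control libraries. KRT7, KRT8 and KRT18 made up nearly all of that sum, TP63 was at 0 in every library, and EPCAM and CDH1 had at most 24 and 6 counts in a library. Of 11 markers of other cell types, 8 to 10 had a count with ZQ and 5 to 8 in control, summing to 1241 to 1548 CPM with ZQ and 1017 to 1324 CPM in control. VIM, COL1A1 and CDH2 carried most of that sum, and the macrophage marker CD68 was at 0 throughout. Within these lists VIM, KRT7 and PECAM1 rose by 1.71, 1.61 and 6.64 on the log2 scale. COL1A1, CDH2, COL1A2 and KRT8 stood at -1.79, -2.49, -2.92 and -1.24, and all of these were called in edgeR. PECAM1, an endothelial marker, had only 14, 14 and 6 counts in ZQ replicates 1 to 3 and 2, 0 and 0 in control replicates 1 to 3. With offsets for GC content and transcript length KRT7 was at 0.31 and lost its call (edgeR adjusted p = 0.12). The part of these differences in the results below was not tested.

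With ZQ the genes for ATF6 and for both proteases that cut it were lower and the IRE1 gene was higher, while 3 of the 4 eIF2alpha kinase genes differed from control by less than 1 on the log2 scale. Of the 10 genes, all of which were tested, 3 fell (ATF6, MBTPS1 and MBTPS2) and 1 rose (ERN1) at an adjusted p below 0.05 in edgeR's quasi-likelihood test, Benjamini-Hochberg adjusted across the 12994 genes tested. Among all tested genes 19.0% were called lower and 19.3% higher, or 38.3% in either direction, so 4 of 10 called is close to the background share. In 8 of the 10 the ZQ and control libraries were fully separate, against 53.5% of all tested genes. The median log2 fold change of the 10 genes was -0.75, beside 0.03 over all tested genes. It was -0.31 with upper-quartile scaling and -1.14 by library totals, scalings that also moved the median of all tested genes. With offsets for GC content and transcript length it was -0.25. Over the 6 members tested when a count of 10 was required in every library it was 0.02.

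**Figure D1:**
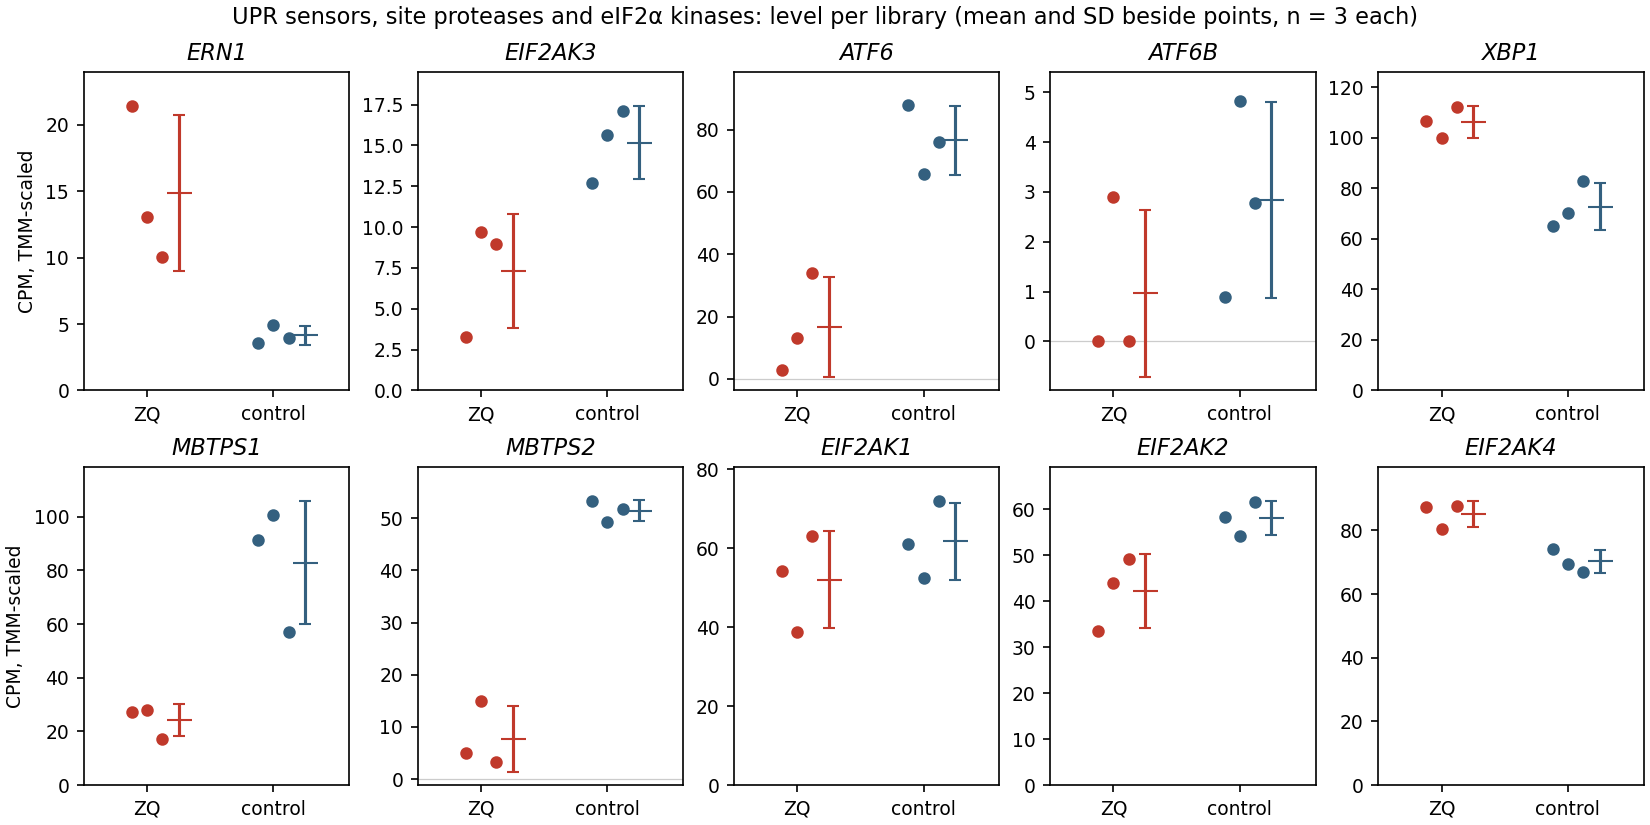
Level of each of the 10 genes in every library, in CPM scaled by TMM factors (vertical axis from 0 or below it, different for each gene), with ZQ libraries in red and control libraries in blue in order of replicate number. The bar beside the points is the mean with its SD, n = 3 each. ERN1, XBP1 and EIF2AK4 lie higher in every ZQ library than in any control library, and EIF2AK3, ATF6, MBTPS1, MBTPS2 and EIF2AK2 lie lower.

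The gene for IRE1, the most ancient of the sensors, shared by yeast and mammals, was scarce in control cells. ERN1 (chr17:64039142-64130819, minus strand, GRCh38) had 39, 27 and 18 counts in ZQ replicates 1 to 3, or 21.4, 13.1 and 10.0 CPM after scaling by TMM factors. In control replicates 1 to 3 it had 52, 85 and 51 counts, or 3.56, 4.94 and 3.93 CPM. Every ZQ library lay above every control library, although its raw counts were lower with ZQ, where depth was 5.95 times less. The log2 fold change was 1.84 ± 0.52 (SE, 95% interval 0.68 to 2.99, edgeR adjusted p = 0.018).

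That call was a narrow one. It held in 10 of 18 alternative settings, and the estimate stayed between 1.19 and 2.29. It was lost without ZQ replicate 1 (1.39), without control replicate 1 (1.88) or control replicate 3 (1.94). Offsets for GC content and transcript length also ended it (1.25, edgeR adjusted p = 0.076). So did controls thinned to the ZQ depth (1.56), no low-count filter (1.53), a replicate block (1.78) and block with offsets (1.19). Per kilobase of exon, ERN1 held 7.73 counts summed over the ZQ libraries and 17.3 over the control libraries. As a gauge of reads on silent genes, 388 olfactory receptor genes held 1.49 counts per kilobase pooled over the ZQ libraries, with a 99th percentile of 16.0, and 0.164 pooled over the control libraries, with a 99th percentile of 3.05. ERN1 therefore lay above the pooled density and below that percentile with ZQ, and the part of such reads in its rise was not tested.

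XBP1, the transcription factor whose mRNA IRE1 splices, was the most abundant of the 10 genes per length in both groups. It held 194, 206 and 201 counts in the ZQ libraries, or 106, 99.7 and 112 CPM, against 949, 1205 and 1076 counts, or 64.9, 70.0 and 82.9 CPM, in the control libraries. All ZQ values lay above all control values, and the ZQ libraries were close to each other. The log2 fold change was 0.55 ± 0.20 (SE, 95% interval 0.09 to 1.00), which missed the threshold (edgeR adjusted p = 0.057). It passed in 8 of 18 alternatives, among them DESeq2 (0.62), upper-quartile scaling (0.99), the GC and length offsets (1.63) and the fit without control replicate 3 (0.79), and it stood at 0.17 by library totals.

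XBP1 is a textbook target of ATF6 through the ER stress response element (ERSE), a CCAAT box and a CCACG box 9 bases apart, which the BiP gene HSPA5 also carries. The 250 bases before the RefSeq start of each gene (GRCh38.p14) are shown because both hold this element. Capitals mark the element on the printed strand. XBP1 has another annotated start, whose window holds no ERSE.
XBP1 (chr22:28800570-28800819, minus strand): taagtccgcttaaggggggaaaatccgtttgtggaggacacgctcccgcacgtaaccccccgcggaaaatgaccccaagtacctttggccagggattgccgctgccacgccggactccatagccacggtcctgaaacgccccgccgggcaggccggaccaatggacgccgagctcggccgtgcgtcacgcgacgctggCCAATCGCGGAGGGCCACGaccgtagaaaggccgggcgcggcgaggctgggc
HSPA5 (chr9:125241344-125241593, minus strand): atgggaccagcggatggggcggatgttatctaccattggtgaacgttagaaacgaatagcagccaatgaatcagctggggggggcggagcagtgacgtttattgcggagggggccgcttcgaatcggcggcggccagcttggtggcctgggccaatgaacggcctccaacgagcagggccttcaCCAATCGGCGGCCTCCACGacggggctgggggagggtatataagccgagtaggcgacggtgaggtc

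The ERSE was searched on both strands as those boxes in full with any 9 bases between them. It stood from 52 to 34 bases before the XBP1 start and from 66 to 48 bases before the HSPA5 start. It was present in 26 of 35116 promoter windows of the same length in the RefSeq table, or 0.074%. Windows were given for 9 of the 10 genes, and XBP1 was the member with a match. The CCAAT box alone, which the ERSE contains, was in windows of 5 members and in 32.0% of all windows. The cyclic AMP element TGACGTCA (1.65% of windows), the UPR element core TGACGTGG (0.612%) and the ATF4-type element TGATGCAAT (0.216%) were in no member's window, each searched on both strands. With a full match to the element in each window, HSPA5 changed by -3.91 ± 0.15 on the log2 scale (SE, edgeR adjusted p = 2.4e-07) and XBP1 by 0.55. Copies with a mismatch in the boxes were not searched for, so the windows may differ in them, and the difference between the genes was not tested.

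ATF6 (chr1:161766294-161964070, plus strand), the sensor that is itself the precursor of a transcription factor, stood next to EIF2AK1 per length in the control cells, with overlapping ranges. It held 5, 27 and 61 counts in ZQ replicates 1 to 3, or 2.74, 13.1 and 34.1 CPM, against 1285, 1131 and 986 counts, or 87.9, 65.7 and 76.0 CPM, in control replicates 1 to 3. The groups did not overlap, but the ZQ libraries were spread widely, and replicate 3 alone held 65.6% of the ZQ counts. The log2 fold change was -2.21 ± 0.60 (SE, 95% interval -3.55 to -0.86, edgeR adjusted p = 0.016), or 4.62-fold lower with ZQ. It was -3.34 without ZQ replicate 3, while the call ended without control replicate 1 (-1.96, adjusted p = 0.057) and with the GC and length offsets (-1.65, adjusted p = 0.053). In bulk RNA, fewer cells that use a gene and less of its RNA per cell cannot be told apart.

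ATF6B, the weaker relative of ATF6 in the major histocompatibility region of chromosome 6, was near the limit of counting. It held 0, 6 and 0 counts with ZQ, against 13, 83 and 36 in the control libraries. A count of 3 is worth 1.45 to 1.67 CPM in a ZQ library and 0.174 to 0.231 CPM in a control library, so levels below about that cannot be seen with ZQ. The groups overlapped and no call was made (log2 fold change -1.46 ± 1.14 SE, 95% interval -4.00 to 1.08, edgeR adjusted p = 0.34). Without ZQ replicate 2 both remaining ZQ libraries were at 0 and the call passed (adjusted p = 0.0496), but the fitted value there is no measure of size. Its exons share 71 bases with TNXB, which had at most 4 counts in any library.

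Both Golgi proteases that release ATF6 were lower. These enzymes also cut the sterol factors SREBP-1 and SREBP-2 and the ATF6-like factors of the CREB3 family. MBTPS1, the serine protease that makes the first cut (chr16:84053761-84116906, minus strand), had 27.4, 28.1 and 17.3 CPM with ZQ (50, 58 and 31 counts). Control libraries had 91.2, 100.5 and 57.0 CPM (1334, 1729 and 740 counts). The lowest control value was above the highest ZQ value by a wide margin, and control replicate 3 was the lowest of its group. The log2 fold change was -1.77 ± 0.33 (SE, 95% interval -2.49 to -1.05, edgeR adjusted p = 0.0019), and it passed in 18 of 18 alternatives, with values from -2.16 to -1.32.

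MBTPS2, the zinc metalloprotease that makes the second cut inside the membrane (chrX:21839636-21885424, plus strand), had a lower level in every ZQ library. It had 4.94, 15.0 and 3.35 CPM with ZQ (9, 31 and 6 counts), against 53.2, 49.3 and 51.7 CPM in the control libraries (778, 848 and 671 counts). Control libraries were within a few CPM of each other, while ZQ replicate 2 held 67.4% of the ZQ counts. The log2 fold change was -2.70 ± 0.51 (SE, 95% interval -3.84 to -1.57, edgeR adjusted p = 0.0021), or 6.52-fold lower, and -3.72 without ZQ replicate 2. With the GC and length offsets it was -1.27 and the call ended (adjusted p = 0.075). The exons share 1093 bases with YY2, a gene inside MBTPS2 on the same strand, which held 0 to 3 counts in ZQ libraries and 24 to 33 in control libraries.

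**Figure D2:**
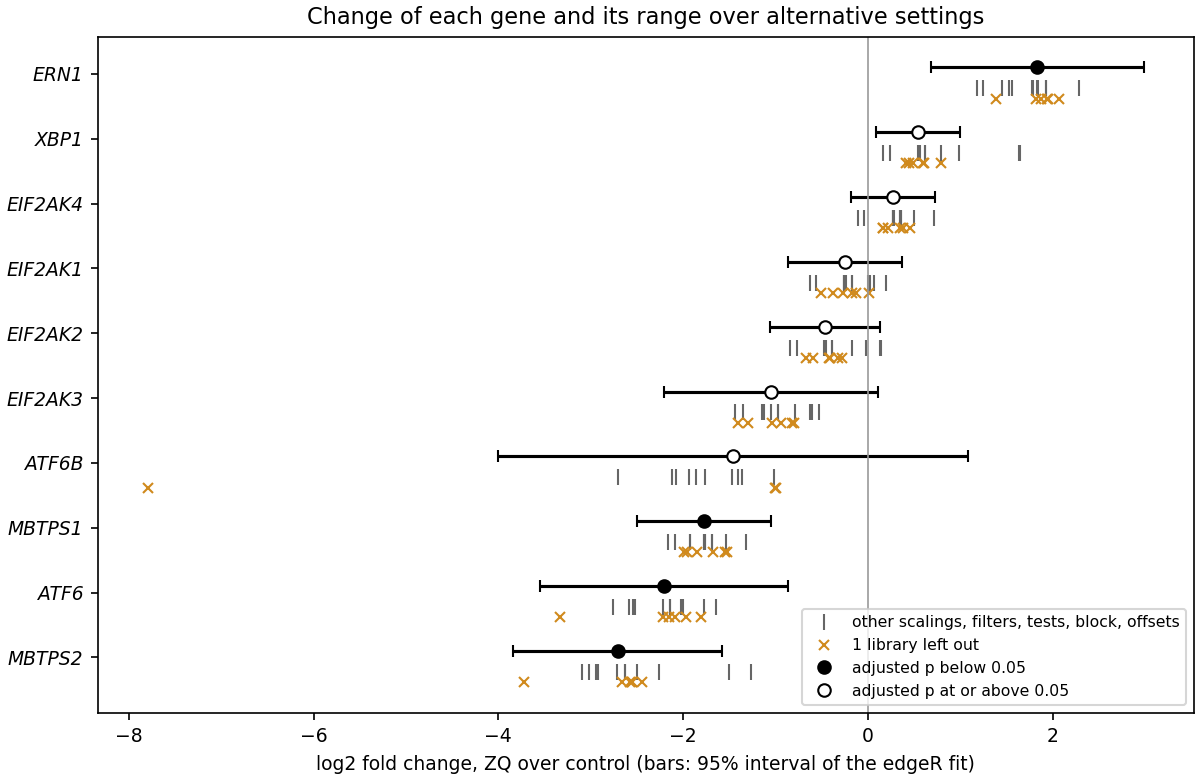
Log2 fold change of each gene, ZQ over control (horizontal axis), with the 95% interval of the edgeR fit as a black bar; filled points passed an adjusted p of 0.05. Grey ticks are other scalings, filters, tests, the replicate block and the offsets, and orange crosses are fits with 1 library left out. MBTPS1, ATF6 and MBTPS2 stayed below 0 and ERN1 and XBP1 above 0 in every setting drawn, while EIF2AK1, EIF2AK2 and EIF2AK4 had values on both sides; the cross for ATF6B at -7.80 comes from a fit in which both ZQ libraries were at 0.

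The eIF2alpha kinases answer different stresses: EIF2AK1 (HRI) lack of haem and mitochondrial stress, EIF2AK2 (PKR) duplex viral RNA, EIF2AK3 (PERK) the ER, and EIF2AK4 (GCN2) uncharged tRNA and stalled ribosomes. No kinase gene passed the test. PERK was the scarcest in both groups, with 3.29, 9.68 and 8.93 CPM in ZQ replicates 1 to 3 (6, 20 and 16 counts), against 12.7, 15.6 and 17.1 CPM in control replicates 1 to 3 (186, 269 and 222 counts). The groups did not overlap, but the log2 fold change of -1.05 ± 0.52 (SE) had a 95% interval from -2.20 to 0.11 (edgeR adjusted p = 0.14). It passed in 1 of 17 alternatives, by library totals (-1.43, adjusted p = 0.048), and was -0.52 with the offsets.

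EIF2AK4 had 87.2, 80.3 and 87.6 CPM with ZQ, above the 74.3, 69.4 and 67.1 CPM of the control libraries, in close triplets. Its log2 fold change of 0.28 ± 0.20 (SE, 95% interval -0.18 to 0.73, edgeR adjusted p = 0.31) passed with upper-quartile scaling (0.72) and was -0.11 by library totals. EIF2AK2 had 33.5, 44.0 and 49.1 CPM with ZQ and 58.4, 54.2 and 61.6 CPM in control, without overlap. Its log2 fold change was -0.46 ± 0.27 (SE, 95% interval -1.06 to 0.14, edgeR adjusted p = 0.20), and it was 0.14 with the offsets and passed by library totals (-0.84). EIF2AK1 had 54.3, 38.7 and 63.1 CPM with ZQ and 60.9, 52.4 and 71.9 CPM in control libraries, which overlapped (-0.25 ± 0.28 SE, 95% interval -0.86 to 0.37, edgeR adjusted p = 0.51, and 0.19 with upper-quartile scaling). Exons of EIF2AK1 share 532 bases with AIMP2 on the opposite strand, which was expressed (89 to 179 counts with ZQ and 709 to 877 in control), and with no strand setting given, reads there cannot be assigned.

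Per length, EIF2AK1 took the largest share of the 4 kinase transcripts in both groups, 42.8% ± 6.22 with ZQ and 44.0% ± 3.23 in control libraries (SD, n = 3 each). Length here is the union of a gene's annotated exons, 11957 bases for EIF2AK4 and 5550 for EIF2AK1. Their longest transcripts are 5499 and 4469 bases, and the shares depend on that choice. Without division by length EIF2AK4 averaged more than EIF2AK1, 85.1 against 52.0 CPM with ZQ and 70.2 against 61.7 CPM in control libraries. Reads that EIF2AK1 shares with AIMP2 were not set apart. EIF2AK4 took 32.9% ± 3.07 with ZQ and 23.5% ± 2.62 in control libraries. EIF2AK2 took 18.1% ± 2.99 with ZQ and 21.5% ± 0.512 in control libraries. PERK took 6.20% ± 3.11 with ZQ and 11.1% ± 1.56 in control libraries. The groups did not overlap for EIF2AK4 (29.4 to 35.1% with ZQ and 20.4 to 25.1% in control) or PERK (2.91 to 9.10% with ZQ and 9.38 to 12.4% in control), and no test was run on the shares. The summed level of the 4 kinases was 19.6 to 24.9 CPM per kilobase with ZQ and 23.1 to 27.4 in control libraries, and these ranges overlapped.

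The 10 genes were ordered by level per length, as mean CPM per kilobase of the same exon union, and the order depends on that length. With ZQ, ATF6 and MBTPS2 stood 3 places lower than in control libraries, ERN1 and EIF2AK2 3 places higher and EIF2AK4 2 places higher. A place is relative to the other members, and the TMM-scaled level of EIF2AK2 was itself lower in the ZQ libraries, without passing the test. XBP1 led in both groups, at 35.0 ± 2.07 with ZQ and 24.0 ± 3.07 in control libraries (SD, n = 3 each), without overlap with the next gene, EIF2AK1. With ZQ the order went on with EIF2AK1 (9.37), EIF2AK4 (7.11), EIF2AK2 (3.92), MBTPS1 (2.37), ATF6 (2.11), ERN1 (1.37), PERK (1.34), MBTPS2 (0.869) and ATF6B (0.267). There, each gene from MBTPS1 down overlapped its neighbour, as EIF2AK1 did EIF2AK4. In control libraries the order was EIF2AK1 (11.1), ATF6 (9.70), MBTPS1 (8.10), EIF2AK4 (5.87), MBTPS2 (5.76), EIF2AK2 (5.40), PERK (2.79), ATF6B (0.779) and ERN1 (0.381). Neighbours overlapped from EIF2AK1 down to EIF2AK2 and again between ATF6B and ERN1, so ERN1 shared the lowest place in control cells.

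Ratios between members within a library do not depend on how libraries are scaled, and 5 were compared, as mean log2 ratios of counts plus 0.5. None can fall below an exact two-sided permutation p of 0.1 with 3 against 3 libraries. After Benjamini-Hochberg adjustment over the 5, the lowest permutation p was 0.25. EIF2AK3 to EIF2AK4 was -3.63 ± 0.86 with ZQ and -2.22 ± 0.29 in control libraries (SD, n = 3 each, exact permutation p = 0.1), a difference of -1.41. XBP1 to ERN1 was 2.88 ± 0.57 with ZQ and 4.13 ± 0.29 in control libraries (exact permutation p = 0.1), a difference of -1.24. Both were without overlap. By the mean of the log ratios, XBP1 counts relative to those of ERN1 were 2.37-fold lower with ZQ. A ratio of counts keeps any trend with GC content and length. Under the offsets for these, XBP1 stood at 1.63 and ERN1 at 1.25 in edgeR, the opposite order to the main fit. The ratio itself was not tested with the offsets.

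The other 3 ratios overlapped between groups. MBTPS1 to MBTPS2 was 1.86 ± 0.84 with ZQ and 0.65 ± 0.46 in control libraries (SD, n = 3 each, exact permutation p = 0.2). EIF2AK1 to EIF2AK2 was 0.29 ± 0.44 with ZQ and 0.08 ± 0.14 in control libraries (exact permutation p = 0.6). ATF6 to ATF6B was 4.16 ± 2.51 with ZQ and 5.03 ± 1.43 in control libraries (exact permutation p = 0.7), a difference of -0.87. Its sign turned without ZQ replicate 2 (0.17) since that library held every ZQ count of ATF6B. Where ATF6B was at 0 the ratio rests on the added 0.5, and with 2 added in its place the difference was -2.07.

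**Figure D3:**
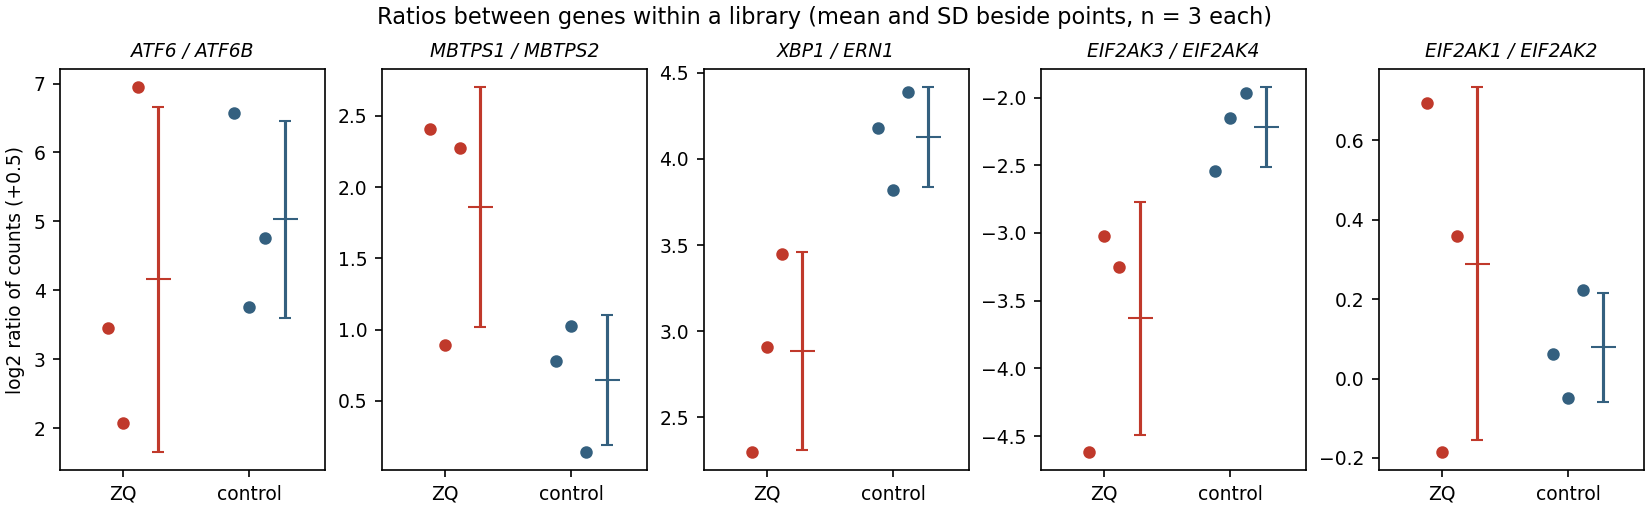
Log2 ratio of counts (each plus 0.5) between pairs of the 10 genes in each library (vertical axis, different for each pair), ZQ libraries in red left of control libraries in blue, with mean and SD beside the points, n = 3 each. XBP1 to ERN1 and EIF2AK3 to EIF2AK4 are lower in every ZQ library than in any control library, and the other 3 pairs overlap.

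Fold changes in this comparison went with GC content over all coding genes, so each member was set beside the tested coding genes within 1 percentage point of its GC content. XBP1 (41.5% GC) stood at 0.55 where 1064 such genes had a median log2 fold change of -0.75 and an upper quartile of 0.19. ATF6, of almost the same GC content (41.3%), stood at -2.21, below the lower quartile of -1.58. MBTPS1 and ERN1, both near 50.9% GC, stood at -1.77 and 1.84, where the quartiles of their like were about -0.7 and 0.9. MBTPS2 (35.9% GC) stood at -2.70, with a lower quartile of -1.80. EIF2AK1, EIF2AK3, EIF2AK2 and EIF2AK4 lay inside the quartiles of the genes of their GC content. These are positions among other genes and not tests.

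**Figure D4:**
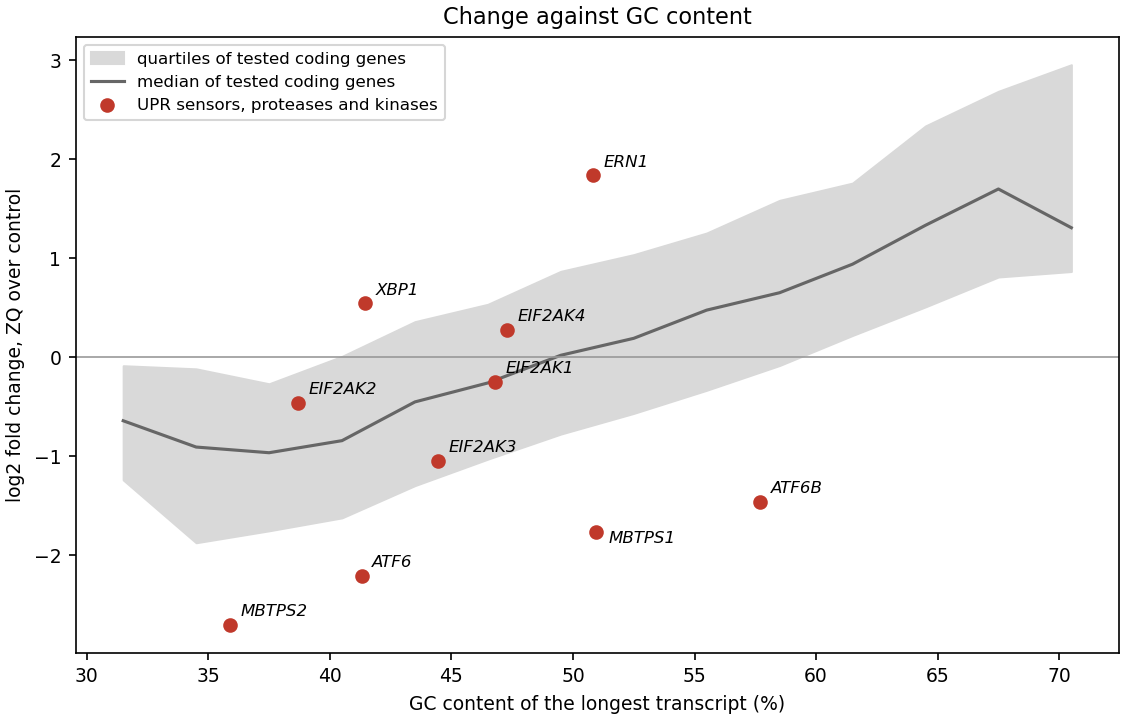
Log2 fold change, ZQ over control (vertical axis), against the GC content of the longest transcript (horizontal axis, %). The line and band are the median and quartiles of tested coding genes in bins of 3 percentage points, and red points are the 10 genes. ERN1 and XBP1 lie above the band, MBTPS1, MBTPS2, ATF6 and ATF6B below it, and the 4 kinases within it.

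The density of reads on exons limits the lower values. Over the 3 ZQ libraries XBP1, EIF2AK1, EIF2AK4 and EIF2AK2 held 198, 52.6, 40.3 and 22.3 counts per kilobase, above the 99th percentile of olfactory receptor genes (16.0). MBTPS1 (13.6), ATF6 (11.8), ERN1 (7.73), EIF2AK3 (7.73), MBTPS2 (5.15) and ATF6B (1.65) lay below it with ZQ. In the control libraries every member exceeded the percentile of 3.05, from 17.3 for ERN1 to 1067 for XBP1. The part of such reads in the changes was not tested.

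The partners and outputs of these genes were counted by lists, each given beside its background of 19.0% lower and 19.3% higher. Among 13 genes of eIF2, its exchange factor eIF2B and the phosphatases that reverse the kinases, 3 were lower and 0 higher (median log2 fold change -0.39). The substrate itself, EIF2S1 (eIF2alpha), stood at -0.84 ± 0.24 and EIF2S3 (eIF2gamma) at -0.91 ± 0.22, and PPP1CB, a phosphatase catalytic subunit, at -1.41 ± 0.20 (SE, edgeR adjusted p = 0.018, 0.0084 and 4.7e-04). EIF2B3, an eIF2B subunit, did not pass (-0.70, adjusted p = 0.053). With the offsets EIF2S1, EIF2S3 and PPP1CB stood at 0.38, 0.05 and -0.016 and all 3 calls were lost. Without control replicate 1, or without control replicate 3, EIF2S1 and EIF2S3 lost theirs and 1 gene of the list was called lower, and without ZQ replicate 2 the list had 5 lower. The split depended on scaling: 1 lower and 3 higher with upper-quartile scaling, 7 lower and 0 higher by library totals, and 1 lower and 2 higher with the offsets.

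Of 10 regulators of the kinases, 2 were lower and 0 higher (median -0.31). DNAJC3, an ER-resident inhibitor of PKR and PERK also called P58IPK, averaged 22.6 ± 12.1 CPM with ZQ and 145 ± 41.1 CPM in control libraries (SD, n = 3 each), a log2 fold change of -2.67 ± 0.40 (SE, edgeR adjusted p = 6.5e-04) that passed in 18 of 18 alternatives and was -1.65 with the offsets. NCK1, an adaptor that binds PERK, stood at -1.24 ± 0.39 (edgeR adjusted p = 0.031), a call held in 9 of 18 alternatives, lost without any 1 of the control libraries, and at 0.37 with the offsets. The list's count of lower genes was 1 without any 1 of the control libraries and 4 without ZQ replicate 3, and 1 gene was called higher without ZQ replicate 1 or 3. The list had 1 lower and 3 higher with upper-quartile scaling, and 2 lower and 2 higher with DESeq2. TARBP2, an inhibitor of PKR, and NCK2 did not pass (1.02 and 2.58, adjusted p = 0.060 and 0.068).

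The IRE1 output list of 10 genes had 3 lower and 2 higher (median 0.36). RTCB, the ligase that rejoins XBP1 exons after IRE1 has cut them, averaged 127 ± 16.5 CPM with ZQ and 262 ± 32.3 CPM in control libraries (SD, n = 3 each), a log2 fold change of -1.04 ± 0.17 (SE, edgeR adjusted p = 0.0011). Its helicase partner DDX1 fell by 1.71 on the log2 scale and TMBIM6, an ER membrane protein that restrains IRE1, by 2.06 (edgeR adjusted p = 1.1e-04 and 8.7e-06). These 3 calls held in 18 of 18 alternatives, with DDX1 at -0.93 under the offsets. RTRAF, another member of the ligase complex, rose by 0.53 and FAM98B, also of that complex and named after its value was seen, by 1.98 (adjusted p = 0.028 and 0.029), each in 10 of 18 alternatives, and the FAM98B groups overlapped. RTRAF lost its call without any 1 of the ZQ libraries or without control replicate 1 or 3. FAM98B lost its call without ZQ replicate 1 or 2 and without any 1 of the control libraries.

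Of 16 tested genes around ATF6 and the Golgi proteases, 2 were lower and 1 higher (median -0.11). The list held ATF6 regulators, other protease substrates, a protease cofactor and genes of SREBP retention and escort. In the main fit all calls were of these last. INSIG1 and INSIG2, which retain the SREBP precursors in the ER, stood at -3.39 ± 0.27 and -1.82 ± 0.43, and SCAP, their escort to the proteases, at 1.75 ± 0.45 (SE, edgeR adjusted p = 1.8e-05, 0.0074 and 0.012). With the offsets INSIG1 stayed at -2.87, while INSIG2 (-0.24) and SCAP (0.49) lost their calls. The list's count of lower genes was 3 without ZQ replicate 1 or 2 and 4 without ZQ replicate 3, and its count of higher genes was 2 without ZQ replicate 1 or 3. It had 2 lower and 3 higher with upper-quartile scaling, and 4 lower and 0 higher with the offsets. SPRING1, a cofactor of site-1 protease, did not pass (0.91, adjusted p = 0.065).

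Of 12 genes known as first outputs of the UPR branches, 4 were lower and 3 higher (median -0.15). Beside HSPA5, the ER chaperone HSP90B1 fell by 2.70 and HERPUD1, of ER-associated degradation, by 1.48 on the log2 scale, and ATF4 rose by 1.21 (edgeR adjusted p = 1.3e-05, 5.0e-04 and 3.4e-04). EDEM1 (-1.88), DDIT3 (1.90) and SEC61B (0.72), named after their values were seen, also passed. EDEM1 acts in ER-associated degradation, DDIT3 encodes the factor CHOP downstream of ATF4, and SEC61B is part of the ER translocon. With the offsets SEC61B was at 0.35 and lost its call, and the others named here kept theirs, with HSP90B1 at -1.58 and ATF4 at 0.61. Scaling moved the list medians across 0: with upper-quartile scaling those of the eIF2, kinase regulator, ATF6 and first output lists were 0.05, 0.14, 0.34 and 0.30, and by library totals that of the IRE1 list was -0.022.

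**Figure D5:**
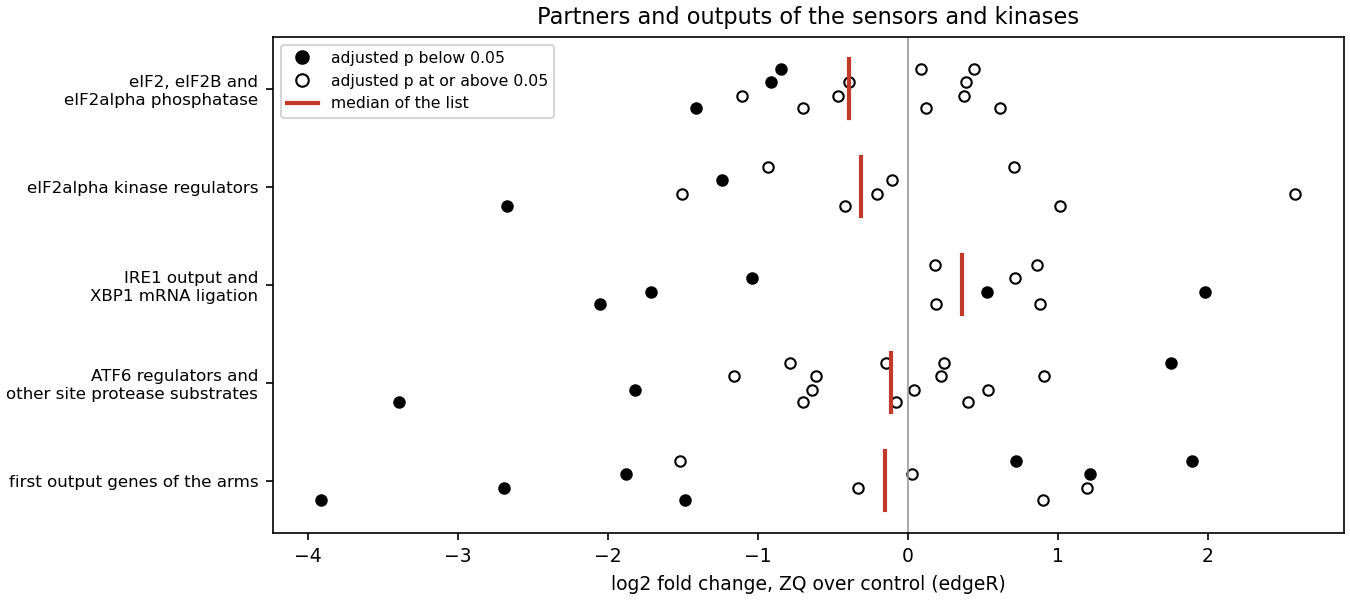
Log2 fold change, ZQ over control (horizontal axis), of each tested gene in 5 lists of partners and outputs; filled points passed an adjusted p of 0.05 in edgeR, and the red line is the median of the list. Every list has points on both sides of 0, and the medians run from -0.39 to 0.36.

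Among tested genes with a mean of at least 5 CPM, the profiles most like those of the members over the 6 libraries were sought by the root mean square distance between centred log2 CPM values. For ERN1 these were RPSAP58 (0.134) and SLC2A4RG (0.160), and for ATF6 LCORL (0.245) and TMPRSS15 (0.273). For MBTPS1 they were OSMR (0.135) and LGALS3BP (0.139), and for MBTPS2 ITGAV (0.166) and CRYBG1 (0.180). The nearest to XBP1 was KHDRBS1 (0.0662), and to EIF2AK3 CCNL1 (0.123) and OXSR1 (0.147). EIF2AK1 was nearest to TET3 (0.0600) and FANCB (0.0635), EIF2AK2 to PFN2 (0.0550) and SUGT1 (0.0713), and EIF2AK4 to SLC25A3 (0.0480) and IGBP1 (0.0482). ATF6B had no close profile, the nearest being RABGAP1L (0.628) and PCCA (0.683). These distances describe 6 libraries in 2 groups.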

How the data were processed

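The authors deposited a table of raw read counts per gene, not normalised, with 60892 rows for 6 libraries. Per the labels' protocols, RNA was extracted with TRIzol, treated with DNase and prepared with an NEBNext Ultra kit. Per the submitters' processing notes the build was GRCh38 and Cufflinks 2.1.1 was used in some step. The sources used here name no aligner, counter, annotation or strand setting. Rows with other than Ensembl IDs numbered 228 and took 0.0906% to 0.161% of counts. Positions, exon lengths and GC content came from GENCODE release 29 (GRCh38), and promoters from RefSeq (GRCh38.p14).

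Low genes were removed with filterByExpr (minimum count 10, minimum total 15). The function applies the minimum count as a CPM limit set at the median library size, so fewer than 10 counts can pass in a ZQ library. The rest were scaled by TMM and tested in edgeR 4.0.16 (R 4.3.3) with the quasi-likelihood test of ZQ against control. The test covered all 12994 genes kept, with a threshold of 0.05 after Benjamini-Hochberg adjustment. The SE is the log2 fold change divided by the square root of F. ATF6B passed the filter through control replicates 2 and 3 and ZQ replicate 2. Offsets were smooth curves per library (mgcv 1.9.3) on GC content and transcript length, available for 98.9% of tested genes. Alternatives used DESeq2 1.42.0, limma-voom (limma 3.58.1), other scalings and filters, a replicate block, thinned controls and each library left out. Ratios were tested by exact permutation (scipy 1.17.1). The fit was run on simulated counts with less spread between libraries than these data and no trend with GC content. Their changed genes were all of above-median level, so that run does not gauge low-count genes. Members, lists and alternatives were chosen with earlier results of these data known. Named genes are all members, the 4 of each list with the smallest adjusted p, and the 2 nearest profiles per member, of which 1 is not reported here. Applying the alternatives to the lists and the olfactory receptor comparison were chosen after seeing the data. Intervals and floors cover counting and library spread only.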

Additional observations from a re-analysis of the deposited data

How the results depend on the processing

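Over 18 alternatives the number of genes past the threshold was within 1.5 times of 4978 in 15; the exceptions were no low-count filter (11603), without control replicate 1 (2815) and without control replicate 3 (3055). With 1 library left out it ran from 2815 to 5407. Upper-quartile scaling, library totals and no filter moved the median of the tested genes by 0.45, -0.38 and -0.31 on the log2 scale. They turned the split of calls into 3767 higher and 1611 lower, 1785 and 3503, and 7957 and 3646, beside 2506 and 2472. Of the 10 genes, the number called higher was 2 with DESeq2 size factors, 2 with DESeq2, 3 with upper-quartile scaling, 2 when a count of 10 was required in every library, 0 without a filter, 0 with the replicate block and 0 to 1 with 1 library left out. With the offsets, block with offsets, thinned controls or control replicate 3 left out, the 1 gene called higher was XBP1 and not ERN1. The number called lower was 5 by library totals, 1 with the offsets, 1 with the count of 10 in every library, where ATF6 and MBTPS2 were not tested, and 2 to 4 with 1 library left out.

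Members with no call changed direction in some settings: EIF2AK1 stood at 0.19 with upper-quartile scaling, 0.019 with the offsets, 0.0073 with block and offsets, 0.067 with thinned controls and -0.50 to 0.0080 with 1 library left out. EIF2AK2 stood at 0.14 with the offsets and 0.13 with block and offsets, and EIF2AK4 at -0.11 by library totals and -0.036 without a filter. The ratio of ATF6 to ATF6B ran from -2.26 to 0.17 with 1 library left out. The cause of these shifts was not tested.

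The labels state no pairing by replicate number. Deviations of same-numbered libraries correlated at only 0.0094, 0.037 and 0.032, although each library correlated best with its own number. These values do not settle whether the libraries were paired. With the replicate block 4404 genes passed, ERN1 stood at 1.78 (edgeR adjusted p = 0.054), and no other member's call changed. With 3 pairs the block test of a ratio cannot go below 0.25. Depth with ZQ limits ATF6B, MBTPS2, PERK and ERN1 most, with 6, 46, 42 and 84 counts over 3 libraries.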

Other observations

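ERN2, the IRE1 paralog known from mucus-producing epithelia, had 0, 9 and 5 counts in ZQ replicates 1 to 3 and 0 in each control library, and was not tested. CREB3L3, an ATF6-like factor best known from liver and intestine, had 4, 11 and 1 counts with ZQ and 0 in each control library. Of the 388 olfactory receptor genes, 156 had no count in any ZQ library and 343 none in any control library, at 5.95 times the depth.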
